A study of Mus musculus with 9 samples.

Results

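Migratory macrophages taken from the upper chamber of a Transwell (group M, 3 arrays) were compared with macrophages kept with the same tumour cells in the lower chamber (group T, 3 arrays). The comparison covers 6 of the 9 arrays of the series, chosen by the sample titles, and 17789 genes. All 9 samples were peritoneal macrophages of male mice, sorted as CD45+ F4/80+ cells, and RNA was measured on Agilent 1-colour arrays with Cy3 dye. T cells had spent 24 h with CT-26, a mouse colon carcinoma line. M cells came from a co-culture with the same line, for a time not given in the sources used here. The remaining 3 arrays (Ctrl) held macrophages cultured alone for 24 h, and their levels are given beside some results. Strain, age and the number of animals are not given in the labels. A cell type label calls the T samples migratory, against the titles, descriptions and protocols, which give that name to M. Groups follow the titles. The labels do not say whether replicate arrays hold separate cultures or animals. The p-values therefore cover the spread of these arrays alone, and that spread may be technical.

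In a Transwell, a membrane with pores separates 2 chambers, and cells can crawl through it toward soluble cues. Macrophages near a tumour meet colony-stimulating factors, chemokines, low oxygen and lactate, and they adjust genes for migration, matrix breakdown, inflammation and metabolism. Macrophages can also fuse and resorb matrix, as osteoclasts do in bone, with the transcription factor NFATc1, cathepsin K and an acid-secreting proton pump. In bulk RNA, fewer cells of a type and less RNA per cell cannot be told apart.

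Levels are log2 values relative to the 75th percentile of each array, so 0 marks the percentile, and they are compared within a gene and never between genes. A gene was called at an adjusted p of 0.05 in limma's moderated test. The 3 M and the 3 Ctrl arrays lay on 1 slide and the 3 T arrays on another, each slide with its own scan, so slide and group cannot be told apart in M against T. Between 60.5% and 66.6% of probes were well above background on the M arrays and between 66.2% and 72.3% on the T arrays. The mean net signal of negative control spots was 59.2 on M1 and 45.8 on M3, against 24.2 to 36.4 on the other 7 arrays. Replicate spots had a median coefficient of variation of 8.72% to 19.8% on M and 4.39% to 4.94% on T.

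The deposited value table of the same samples disagreed with the scanner files on 3 of the 6 compared samples. Its T2 column equalled no scanner file within 0.001 log2 units, and the M1 column matched the M2 file and the M2 column the M1 file. All values here come from the scanner files. The T2 column is named below because it lay at the M level for some gene groups and at the T level for others. Of 87 genes called at least 8-fold higher in M, it was nearer the M mean for 83. Of 85 genes called at least 8-fold lower in M, it was nearer the M mean for 58. Over all calls the column was split about evenly, nearer M for 1239 of 2624 higher genes (47.2%) and for 1064 of 1929 lower genes (55.2%). Which of the 2 sources holds the T2 sample was not tested. Without the T2 array, the T1 and T3 arrays, which were equal in both sources, left 1583 genes higher and 1300 lower in M.

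Migratory macrophages differed from lower-chamber macrophages at many genes in both directions. Of 17789 tested genes, 2624 were higher in M (14.8%) and 1929 were lower (10.8%), and 1264 and 1114 of these differed at least 2-fold. The counts of each gene list below are to be read beside the shares of 14.8% and 10.8%. Results given below without both M1 and M3 rest on 1 M array, M2, so a lost call there need not mean a smaller difference. In that setting the median difference of all genes was 0.24 log2 units. The 3 M arrays lay wholly above or wholly below the 3 T arrays at 8604 of the 17741 genes with a value on all 6 (48.5%). The median difference of all genes was 0.11 log2 units. Scaling each array by its median moved that median to -0.01 and gave 1559 genes higher against 1929 lower, a share of 44.7% higher instead of 57.6%. The list medians given below moved with that scaling, and those of 14 of the 41 lists, all between 0.02 and 0.12, changed sign. With the genes split by mean level into 5 groups of nearly equal size, 851 were higher and 413 lower in M in the dimmest group, against 501 and 504 in the middle group. Of 187 genes named by rule and called, 148 kept the call without any 1 array and 39 lost it for at least 1. Among those described below, Optn, Flcn, Ccr1, Itgav, Itga6, Limk1, Il12b, Rel, Birc3, Pfkfb4, Cd274, Fasn, Cdk1, Atf6, Atp5g3 and Ptprc are among the 39.

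**Figure D1:**
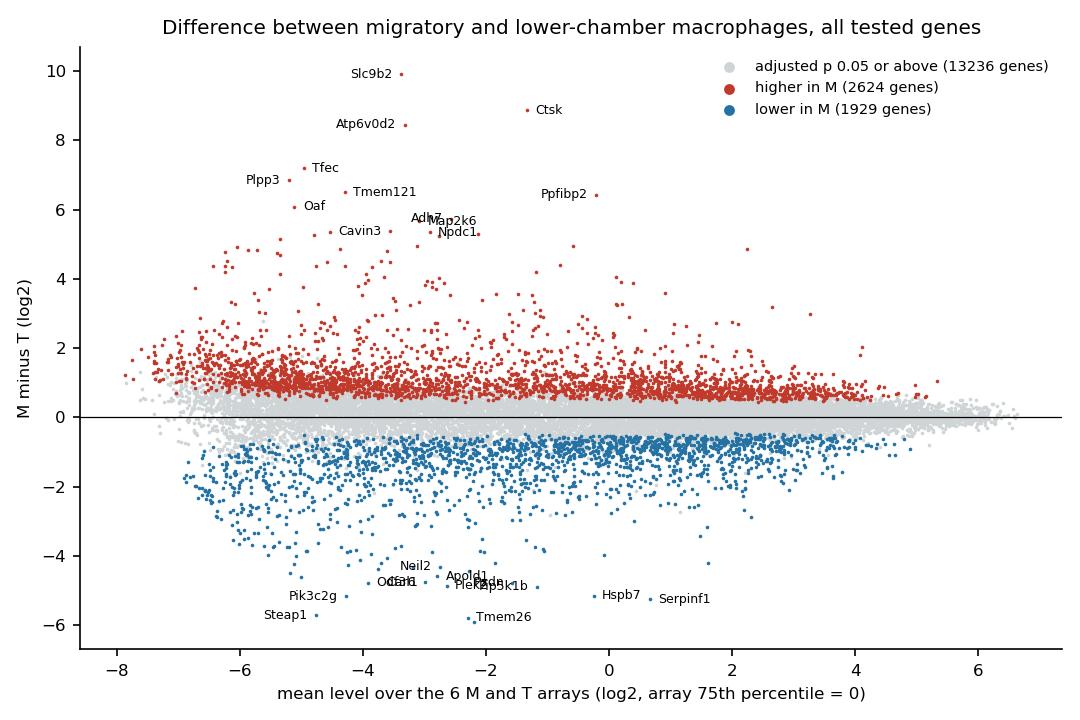
Difference between M and T (log2) against the mean level over the 6 arrays (log2 relative to the 75th percentile of each array), 1 point per tested gene, red where called higher in M and blue where called lower, with the 12 largest rises and 12 largest falls of the naming rule labelled. Of the labelled falls, Tmem26 lies lowest at -5.79. Slc9b2 lies highest, at a fitted value set by T arrays not well above background.

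The genes with the largest rises in M included several of the osteoclast programme. Slc9b2, a sodium-proton antiporter known from osteoclasts, was at 1.35, 1.89 and 1.48 on M1 to M3 and at -8.75, -8.66 and -7.60 on T1 to T3. No T array had it well above background, which makes M at least 269.9-fold higher (adjusted p = 8.74e-08, limma). Such a bound sets the mean of the brighter group against a floor on each dim array, namely the faintest signal of any probe above background there, or the probe's own signal if higher. Ctsk, which encodes the collagen-cleaving protease cathepsin K, was at 2.89, 3.05 and 3.37 in M and -6.11, -5.22 and -5.97 in T, where 2 arrays measured it above background. The groups did not overlap, and the difference of 8.87 ± 0.27 log2 units (SE, n = 3 each; limma adjusted p = 8.74e-08) is 467-fold. Atp6v0d2, a subunit of the vacuolar proton pump in osteoclasts and macrophages, was at 0.84, 1.02 and 0.85 in M and -6.96, -7.47 and -8.20 in T. M was at least 170.1-fold higher, and both probes of the gene were higher in M. The probes of Slc9b2 and Ctsk lie on chromosome 3 (mm9, 135005416-135005475 and 95313165-95313224), and that of Atp6v0d2 lies on chromosome 4 (19805367-19805426).

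Tfec, a transcription factor of the MiT family that macrophages express, was at -1.13, -1.92 and -1.06 in M, and no T array exceeded -8.30. It was at least 35.2-fold higher in M. Plpp3, a phosphatase of lipid mediators, was at least 26.5-fold higher, and Tmem121 and Oaf were at least 44.0-fold and 21.6-fold higher, each below background on all 3 T arrays. Ppfibp2, which encodes liprin beta 2, reached at least 2.88 on every M array and at most -3.26 on every T array, a difference of 6.43 ± 0.27 (SE, n = 3 each). The alcohol dehydrogenase Adh7 (53.0-fold), the p38-activating kinase Map2k6 (50.5-fold), the caveolar protein Cavin3 (41.3-fold) and Npdc1 (40.8-fold) complete the 12. For each of the 12, all 3 Ctrl arrays, which share the slide of M, lay below all 3 M arrays. The T2 column of the value table was nearer M for all 12, with Slc9b2 at 0.48, Ctsk at 2.92 and Atp6v0d2 at 0.61. Whether the sample behind that column bears on these rises was not tested.

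Of the 12 largest falls by the naming rule, Tmem26, a membrane protein, was at -4.86, -5.23 and -5.48 in M and 0.44, 0.65 and 0.70 in T, a difference of -5.79 ± 0.25 (SE, n = 3 each; limma adjusted p = 4.39e-07). Serpinf1, which encodes the secreted anti-angiogenic protein PEDF, was at -1.98, -1.66 and -2.27 in M and 3.41, 3.17 and 3.28 in T, 38.2-fold lower. Both of its probes were lower in M, and neither gene had overlapping groups. Steap1, of a family of metalloreductases, and Pik3c2g, a class II phosphoinositide 3-kinase, were not well above background on any M array and were at least 12.7-fold and 14.8-fold lower. Hspb7, a small heat shock protein, fell by 5.16 log2 units, and Pxdn, which encodes the collagen IV crosslinking enzyme peroxidasin, fell by 4.78 at both of its probes. Plek2 (29.3-fold), Car6 (27.1-fold), Odf3l1 (27.5-fold) and Apold1 (24.2-fold) were also lower, and the DNA glycosylase Neil2 fell by 4.32 log2 units. Pip5k1b, a phosphoinositide kinase, was uneven in M at -5.04, -1.56 and -4.29, against 1.33, 1.18 and 1.31 in T, and its call was lost with both M1 and M3 left out. All 3 Ctrl arrays lay above all M arrays for 10 of the 12, and overlapped them for Plek2 and Car6. The T2 column was nearer M for 10 of the 12 and nearer T for Pip5k1b and Car6.

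**Figure D2:**
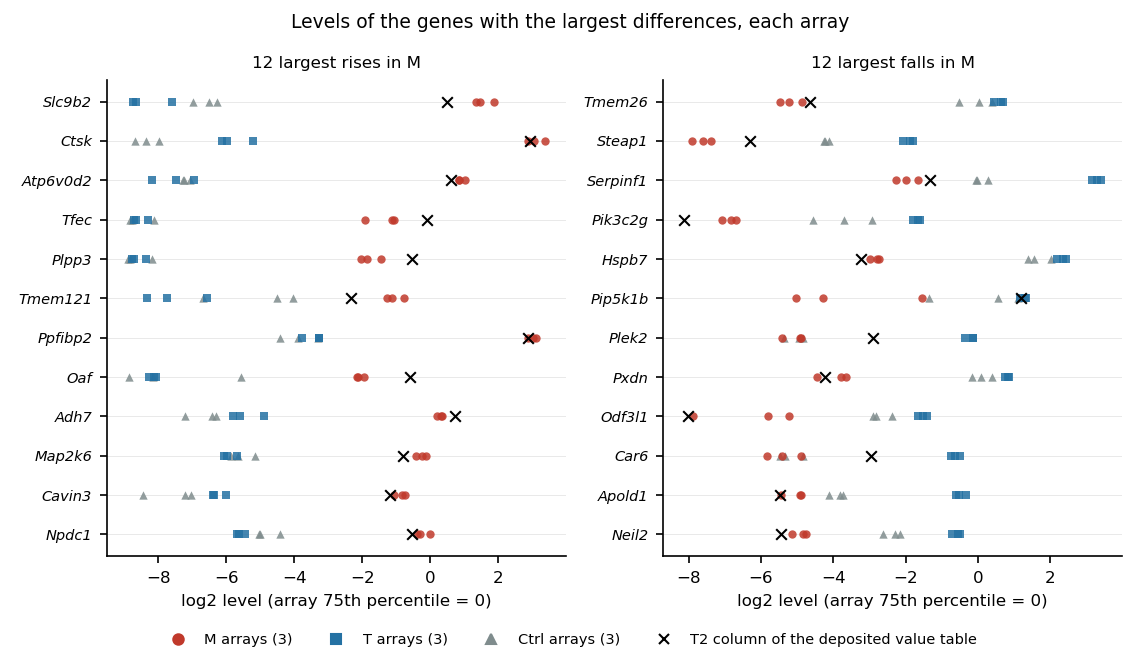
Levels on each array (log2 relative to the 75th percentile of the array) of the 12 largest rises and 12 largest falls, with red circles for M, blue squares for T, grey triangles for Ctrl and a black cross for the T2 column of the deposited value table. M and T do not overlap for any of the 24, and the cross lies nearer M for all 12 rises and for 10 of the 12 falls.

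The list of osteoclast-type resorption and fusion genes held 22 tested members, of which 12 were higher in M, 1 was lower and 9 did not pass the test (median difference 0.69). Nfatc1, the master transcription factor of osteoclasts, was at 1.75, 1.79 and 1.69 in M and -1.50, -1.61 and -1.44 in T, 9.58-fold higher at both probes. Acp5, the tartrate-resistant acid phosphatase used to stain osteoclasts, was at 4.58, 5.05 and 4.64 in M and 1.82, 1.65 and 1.84 in T, 7.91-fold higher. Mmp9, gelatinase B, was at 0.50, 0.20 and 0.43 in M and -2.69, -2.40 and -2.46 in T, 7.44-fold higher (limma adjusted p = 2.16e-06). Siglec15, Oscar, Src and the proton pump and chloride channel genes Tcirg1 and Clcn7 were higher by 0.56 to 1.47 log2 units, and Calcr, the calcitonin receptor, was well above background on 1 M array and on no T array. The Ctrl arrays overlapped M for Src (-1.26, -1.43 and -1.68) and Siglec15 (-3.22, -3.74 and -4.75) and lay below M for Oscar, Tcirg1 and Clcn7. Calcr was above background on all 3 Ctrl arrays. Ocstamp, a fusion protein, went the other way at -0.65, -0.52 and -2.28 in M against 1.15, 1.17 and 1.18 in T. Dcstamp, the other fusion protein of the list, did not pass at -0.50 ± 0.18 (adjusted p = 0.063). The T2 column of the value table was nearer M for all 12 members that were higher, and in limma's test on that table none of the 12 passed, against 11 without the T2 array and 10 without both M1 and M3.

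Of 22 MiT and TFE factors and autophagy genes, 4 were higher (18.2%) and 2 lower (9.09%), near the shares of all genes (list median 0.06). Besides Tfec, the higher members were Gpnmb, a membrane glycoprotein of lysosomes and phagosomes, the autophagy receptor Optn and Fnip2. Optn was well above background on 2 M arrays and 1 T array, and was uneven in T at -6.22, -8.28 and -6.33. Gpnmb was at 1.71, 1.94 and 2.01 in M and -3.30, -2.94 and -2.97 in T, 31.1-fold higher with no overlap. Flcn and Map1lc3b were lower by 0.62 and 0.83 log2 units. Of 44 lysosomal enzymes, membrane proteins and pump subunits, 7 were higher (15.9%, near the share of all genes) and 1 was lower. Cathepsin H (Ctsh, 2.24) and cathepsin C (Ctsc, 1.77) showed the largest differences, and the list median was 0.05. The lysosomal count higher was 3 under median scaling and 3 without both M1 and M3, and the MiT and autophagy count was 2 without both M1 and M3.

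Matrix proteases and their inhibitors had 13 of 31 members higher and 6 lower (median 0.62). After Ctsk, the largest rises were Adamts1 (5.27 ± 0.43), Timp2 (3.09), the neutrophil collagenase Mmp8 (2.96) and Mmp9. Mmp14, the membrane-bound activator of gelatinase A, rose by 1.04 and Mmp2, gelatinase A itself, by 0.80. Mmp12, the macrophage elastase, was not well above background on any M array and was at -2.47, -2.32 and -2.36 in T, at least 8.69-fold lower in M. Timp1 fell by 2.14, coagulation factor III (F3) by 1.65 and the plasminogen activator urokinase (Plau) by 1.04, while tissue plasminogen activator (Plat) rose by 1.08. Of 28 extracellular matrix genes, 2 were higher and 5 lower. The lysyl hydroxylase Plod2 was 23.0-fold higher in M, Col2a1 (-3.82) was lower, and Col4a1, above background on no M array, was at least 2.22-fold lower.

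Chemokine and colony-stimulating ligands moved in both directions, with 8 of 24 higher and 4 lower (median 0.32). Ccl2, the main attractant of CCR2+ monocytes, was at 4.13, 4.41 and 4.17 in M and 0.76, 1.18 and 1.21 in T, 9.12-fold higher (limma adjusted p = 3.50e-06). Its neighbour Ccl7 was at -0.97, -0.76 and -1.04 in M and -4.97, -4.71 and -4.83 in T, 15.0-fold higher. Pf4 (3.60), the neutrophil attractant Cxcl3 (2.51) and Ccl24 (1.72) were also higher, as were Cxcl14, Cxcl1 and Il34 by 0.96 to 1.35. Csf1, the growth factor of macrophages, was at -3.75, -3.78 and -3.75 in M and -0.87, -0.72 and -0.77 in T, 7.85-fold lower with no overlap. Csf3, which encodes G-CSF, was at 0.42, 0.27 and 0.24 in M and 2.34, 2.44 and 2.39 in T, 4.22-fold lower. On the Ctrl arrays, Csf1 lay at -6.08, -6.03 and -5.50 and Csf3 at -3.70, -3.69 and -3.25, below both groups. The T2 column was nearer M for all 8 ligands that were higher and nearer T for all 4 that were lower, and with the value table none was called higher and 3 were called lower. Without both M1 and M3, 5 were higher. Its Ccl2 value of 5.55 and its Csf3 value of 5.12 lay above every M and T array.

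**Figure D3:**
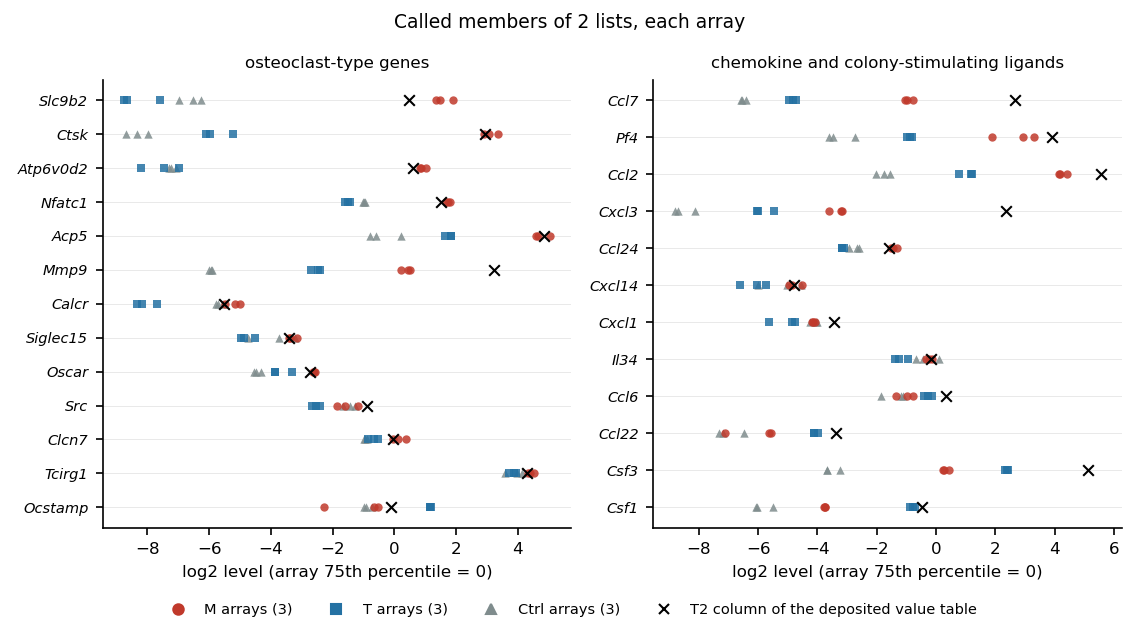
Levels on each array (log2 relative to the 75th percentile of the array) of the 13 called osteoclast-type genes and the 12 called chemokine and colony-stimulating ligands, with red circles for M, blue squares for T, grey triangles for Ctrl and a black cross for the T2 column of the deposited value table. The cross lies nearer M for the ligands that were higher in M and nearer T for Ccl6, Ccl22, Csf3 and Csf1.

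Among chemoattractant receptors, 7 of 26 were higher and 2 lower (median 0.09). S1pr1, the receptor for sphingosine 1-phosphate, was at -4.01, -4.06 and -3.77 in M and below background on all T arrays, at least 5.89-fold higher. The complement receptor C5ar1 rose by 1.99, Cxcr3 by 1.42 and Ccr1, a receptor of CCL3 and CCL5, by 2.31, and without T1 the Ccr1 difference was 2.04 (adjusted p = 0.0501, limma). The formyl peptide receptor Fpr2 was below background on all T arrays and at least 3.17-fold higher. The oxysterol receptor Gpr183 (-1.34) and C5ar2 (-0.98) were lower. Integrins and adhesion molecules had 2 of 26 higher and 6 lower. Itgal, the alpha chain of LFA-1, rose by 1.24, and Pecam1 (-1.32), Icam1 (-1.17), Itgav (-1.08), Itga6 (-0.88), Itga4 (-0.87) and Itga3 (-0.65) fell, with the 2 probes of Itga6 split in direction. Actin and motility genes had 5 of 50 higher and 3 lower (median 0.12), both shares below those of all genes, and none of the 5 passed under median scaling. Cttn, among the 5, was above background on no M or T array. Limk1, a kinase that inactivates the actin-severing protein cofilin, rose by 0.93 and Wipf1, a partner of WASP, fell by 1.08 with its 2 probes split. Without both M1 and M3, 4 receptors were higher, 3 adhesion genes lower, and 1 actin gene higher and 0 lower.

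Genes of inflammatory activation were lower in M more than higher, with 2 of 24 higher and 6 lower (median -0.52). Nlrp3, the inflammasome sensor, was at -1.33, -0.82 and -1.49 in M and 0.46, 0.09 and 0.42 in T, 2.90-fold lower. Il23a, a subunit of interleukin 23, was at -1.63, -1.25 and -1.66 in M and -0.12, 0.14 and 0.13 in T, 2.96-fold lower. Cd40 (-1.53), Il18 (-1.23), Ptgs2, which encodes cyclooxygenase 2 (-1.21), and Tnf (-0.59) also fell. Cd86, a costimulatory ligand, went the other way at -3.93, -4.43 and -4.06 in M and was below background on all T arrays, at least 5.16-fold higher. Il12b was higher by 0.93, with 1 M array and 2 T arrays well above background. Nos2, inducible nitric oxide synthase, and Il1b did not pass, at -0.49 ± 0.25 (adjusted p = 0.181) and 0.65 ± 0.23 (adjusted p = 0.068). The T2 column was nearer T for all 6 members that were lower, and 6 were lower with the value table too.

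The subunits, inhibitors and targets of NF-kB had 4 of 29 members higher and 8 lower. Icam1, Bcl2l1, Tnip3, Rel and Ier3 were lower by 0.90 to 1.17 log2 units, Birc3 was higher by 0.90, and the T2 column was nearer T for all 8 that were lower. Under median scaling 1 was higher, and without both M1 and M3 none was higher and 5 were lower. Interferon-stimulated genes had 6 of 37 higher (16.2%) and 4 lower (10.8%), near the shares of all genes (list median -0.01). Gbp3 (2.19) and Ifit2 (1.73) rose, while Isg20 (-1.57) and Mx2 (-1.50) fell, and without both M1 and M3 the counts were 3 and 2.

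Genes of alternative activation were split, with 10 of 27 higher and 6 lower (median 0.63). Clec7a, the beta-glucan receptor Dectin-1, rose by 2.21, the chitinase-like Chil3 by 1.99, the transglutaminase Tgm2 by 1.32 and the lectins Clec10a and Mgl2 by 0.88 and 0.78. Arg1, which encodes the arginine-degrading enzyme arginase 1, was at -3.69, -4.06 and -4.11 in M, -2.38, -2.07 and -2.24 in T, and -6.20, -5.98 and -6.37 on Ctrl. M lay between the 2 other groups without overlap and 3.30-fold below T (limma adjusted p = 0.000124). Ccl22 was above background on no M array and at least 2.81-fold lower. Egr2 (-2.35), Socs2 (-1.26), Klf4 (-0.90) and Il10ra (-0.69) were also lower. Mrc1, the mannose receptor, was not well above background on any of the 9 arrays and was not tested.

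Immediate early genes and the phosphatases that feed back on MAP kinases were among the lists with the highest share of falls, with 14 of 34 members lower and 1 higher (median -0.56), against 10.8% and 14.8% of all genes. Egr1, a zinc finger factor induced within minutes of growth factor signals, was at -0.93, -1.67 and -0.69 in M and 2.10, 1.86 and 1.75 in T, 7.99-fold lower (limma adjusted p = 0.000263). Egr2 was at -2.73, -2.53 and -2.59 in M and -0.25, -0.21 and -0.35 in T, 5.09-fold lower, and neither gene had overlapping groups. Maff, a small Maf factor, was 3.30-fold lower. The phosphatases Dusp5 (-1.31), Dusp1 (-0.83), Dusp6 (-0.80) and Dusp2 (-0.76), the AP-1 subunits Fosl1 (-1.02) and Junb (-0.92) and the RNA-binding Zfp36 (-1.16) were lower, and the nuclear receptor Nr4a2 was higher by 1.07. For Egr1, the Ctrl arrays were at -2.92, -2.02 and -3.53, below both groups. The T2 column was nearer T for 11 of the 14 that were lower, the exceptions being Btg2, Klf4 and Nr4a1. The count lower was 8 with the value table and 7 without both M1 and M3.

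Hypoxia-response and glycolysis genes were lower in M at 15 of 37 members and higher at 1 (median -0.32). P4ha2, a collagen prolyl hydroxylase subunit, was at -0.55, -0.66 and -0.42 in M and 1.76, 1.82 and 1.56 in T, 4.78-fold lower (limma adjusted p = 1.98e-05). Egln1 and Egln3, the oxygen-sensing hydroxylases that mark HIF-1 alpha for breakdown, were 3.88-fold and 3.05-fold lower. Ankrd37, a target of HIF-1, was at 2.85, 3.06 and 2.38 in M and 4.79, 4.32 and 4.44 in T, 3.36-fold lower. None of these had overlapping groups. Ero1a (-1.52), Hilpda (-1.51), Pfkfb3 (-1.30), Adm (-1.24), Higd1a (-1.09), Ddit4 (-1.05), P4ha1 (-1.01), Ndrg1 (-0.93), Bnip3l (-0.85) and Hk2 (-0.71) also fell. Vegfa, the main vascular growth factor, was at 2.38, 2.68 and 2.65 in M, 3.21, 3.36 and 3.34 in T and 1.94, 2.13 and 2.09 on Ctrl, 1.66-fold lower in M than in T (adjusted p = 0.0081), and the call was lost without both M1 and M3. The glycolytic regulator Pfkfb4 was higher by 0.70, and 21 members did not pass. Among these were the glycolytic enzymes Aldoa, Aldoc, Eno1, Gapdh, Gpi1, Hk1, Ldha, Pfkl, Pfkp, Pgam1, Pgk1, Pkm and Tpi1. Their differences ran from -0.36 (Pgam1) to 0.38 (Eno1). The glucose transporter Slc2a1 (-0.29) did not pass either. The M arrays overlapped the Ctrl arrays for 11 of the 15. The T2 column was nearer M for 9 of the 15 and nearer T for P4ha2, Hilpda, Pfkfb3, Adm, Vegfa and Hk2. The count lower was 8 with the value table and 9 without both M1 and M3.

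HIF factors bind a short core in hypoxia-response promoters, so the 250 bases before the start sites were searched for the letters ACGTG on both strands. A match is a description of these letters, not a shown binding site. The 4 list members with the largest falls each hold it, and their promoters are shown 5′ to 3′ on the gene's strand, from RefSeq on build GRCm38.p6, with the core in capitals. They lie at chr11:54100674-54100923 (plus strand), chr8:124949255-124949504, chr8:45999851-46000100 and chr12:54203875-54204124 (minus strand).
P4ha2: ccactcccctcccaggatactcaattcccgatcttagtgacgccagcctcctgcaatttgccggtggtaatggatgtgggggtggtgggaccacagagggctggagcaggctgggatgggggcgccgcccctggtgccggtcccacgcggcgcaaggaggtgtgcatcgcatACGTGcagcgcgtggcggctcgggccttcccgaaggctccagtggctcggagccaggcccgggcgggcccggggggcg
Egln1: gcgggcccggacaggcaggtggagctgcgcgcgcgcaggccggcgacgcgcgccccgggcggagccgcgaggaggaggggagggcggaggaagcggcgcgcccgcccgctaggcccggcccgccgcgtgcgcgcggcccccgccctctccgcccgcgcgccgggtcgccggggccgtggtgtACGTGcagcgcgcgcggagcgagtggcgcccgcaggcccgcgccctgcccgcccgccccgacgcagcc
Ankrd37: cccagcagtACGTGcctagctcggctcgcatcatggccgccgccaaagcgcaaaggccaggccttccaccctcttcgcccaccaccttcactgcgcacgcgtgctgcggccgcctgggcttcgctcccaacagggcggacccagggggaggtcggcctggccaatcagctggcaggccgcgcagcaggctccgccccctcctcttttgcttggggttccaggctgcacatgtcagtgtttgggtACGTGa
Egln3: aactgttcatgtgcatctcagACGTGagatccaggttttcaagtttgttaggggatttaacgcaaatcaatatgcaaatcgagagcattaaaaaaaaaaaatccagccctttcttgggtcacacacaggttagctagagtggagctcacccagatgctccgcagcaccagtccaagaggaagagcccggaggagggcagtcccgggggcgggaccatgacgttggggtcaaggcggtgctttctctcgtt
Counted from the start site, the core begins at base -78 in P4ha2, -68 in Egln1 and -229 in Egln3, and at -241 and -6 in Ankrd37. Among list members with a promoter in the table, 11 of 13 that were lower in M held the core in at least 1 annotated promoter, and 10 of 21 that did not pass. Adm and Higd1a were lower without it. Hilpda held it in 1 annotated promoter and lacked it in another, and so did Vegfa. On the minus strand, the Vegfa window with the core (chr17:46025164-46025413) lay downstream of the window without it (chr17:46032378-46032627). Vegfa counts among the 11 through that downstream window alone. Of 13412 tested genes with a promoter in the table, 22.4% held the core. Among the 34 immediate early and MAP kinase feedback genes, it was in 10 of the 26 with a promoter. The hypoxia list was drawn up from hypoxia-response and glycolysis genes, with earlier results of these data known. Genes with more than 1 annotated promoter had more windows in which to match. Whether HIF factors bear on the falls was not tested.

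**Figure D4:**
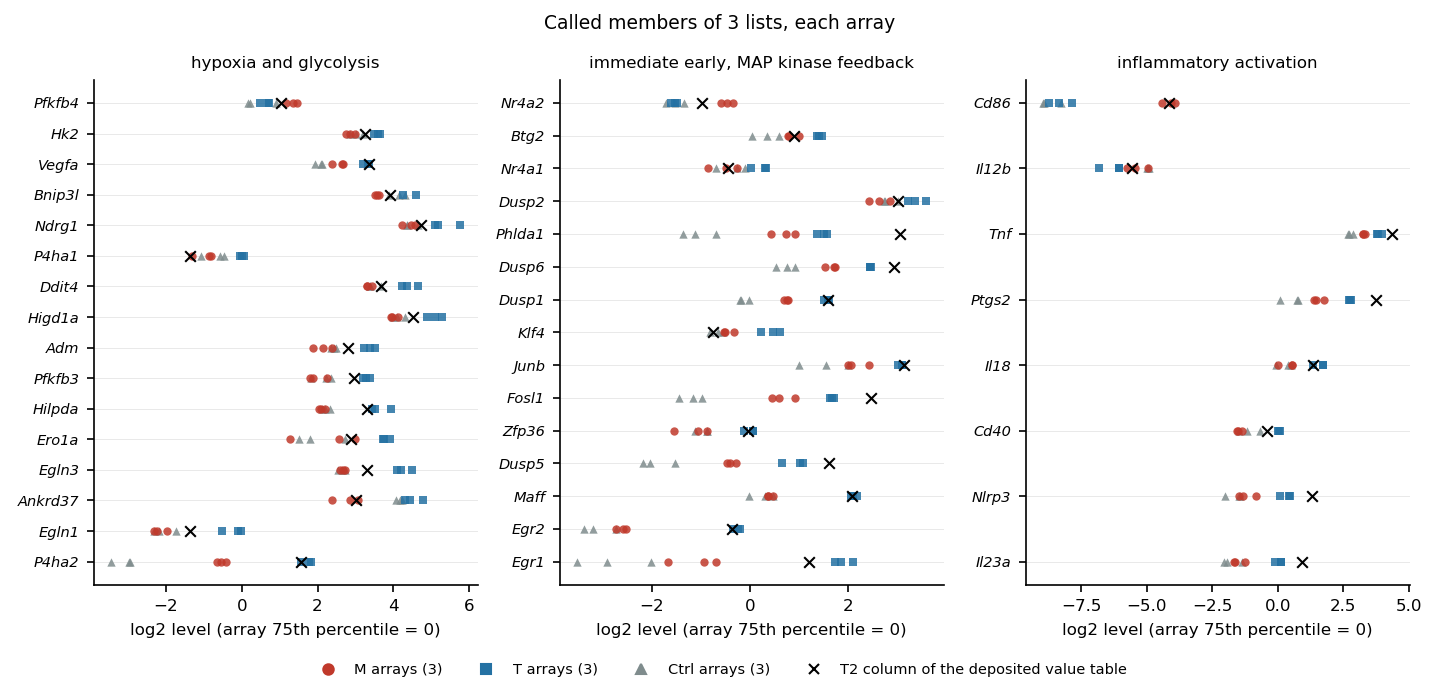
Levels on each array (log2 relative to the 75th percentile of the array) of the called members of the hypoxia and glycolysis, immediate early and MAP kinase feedback, and inflammatory activation lists, with red circles for M, blue squares for T, grey triangles for Ctrl and a black cross for the T2 column of the deposited value table. The cross lies nearer T for all 6 inflammatory genes that fell, for 11 of 14 immediate early genes and for 6 of 15 hypoxia genes.

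Growth factors for vessels and epithelium had 6 of 22 members higher and 7 lower. Pgf, the placental growth factor, was at -0.82, -0.50 and -0.60 in M and 1.62, 1.22 and 1.20 in T, 3.97-fold lower, and Hbegf (-2.07), Pdgfb (-1.38), Wnt9a (-3.96) and Vegfa fell with Serpinf1. Gas6, a ligand of the TAM receptors (2.10), Areg (1.82), Vegfc (1.38), Igf1 (1.06), Egf (0.78) and Vegfb (0.57) rose, and 1 of the 4 probes of Igf1 was lower in M. Under median scaling 3 growth factors were higher, and without both M1 and M3 also 3. Genes of the TGF-beta pathway had 2 of 26 higher (1 under either of those settings) and 7 lower (median -0.24). The ligand Tgfb3 was at -2.90, -2.88 and -2.71 in M and -0.21, -0.02 and -0.04 in T, 6.67-fold lower. The inhibitory SMADs Smad6 (-2.59) and Smad7 (-1.67), Smad3 (-1.26) and the target Id2 (-1.64) fell, and the co-receptor Tgfbr3 rose by 1.32. One Ctrl array had no Smad6 value.

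Scavenger and phagocytic receptors had 10 of 35 members higher and 4 lower (median 0.45). Cd36 (1.90), Clec4n (1.57), the class A receptor Msr1 (1.39) and Siglec1 (1.23) rose. Mertk, which binds apoptotic cells through Gas6 and protein S, was at -4.96, -5.03 and -5.09 in M and -2.84, -2.83 and -2.62 in T, 4.79-fold lower, while its ligands Gas6 and Pros1 (2.03) were higher. Lrp1 (-0.87) fell, Stab2 fell by 1.86 with its 2 probes split in direction, and Trem1 fell by 1.41 with overlapping groups. Complement genes had 5 of 16 higher, among them C1ra (2.92) and C3 (1.62), and 2 lower. Without both M1 and M3, 2 scavenger receptors and none of the complement and MHC class II genes were lower. MHC class II genes had 7 of 16 higher and 1 lower (median 0.07). H2-Aa, the alpha chain of I-A, rose by 3.26. It was at -3.24, -2.88 and -3.19 in M and -5.94, -6.01 and -7.15 in T. H2-DMb2 (2.13), H2-Eb1 (1.70), H2-DMa (1.60) and H2-DMb1 (1.58) rose. H2-DMb1 was uneven in M at -2.59, -2.31 and -4.21, against -4.58, -4.79 and -4.48 in T. H2-Ab1, the beta chain of I-A, did not pass at -0.24, with both probes lower in M. Cd74 (-0.14), H2-Oa (-0.40) and Ciita (-0.65) did not pass either.

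Checkpoint, costimulatory and T cell suppression genes had 8 of 30 higher and 6 lower. Ptger2, a receptor for prostaglandin E2, was not well above background on any T array and was at least 11.3-fold higher, and Cd200r1, an inhibitory receptor of myeloid cells, was at -1.51, -1.87 and -1.51 in M and -6.36, -5.03 and -5.63 in T, 16.4-fold higher. Cd274, which encodes PD-L1, was at -0.90, -1.94 and -0.73 in M and -2.82, -2.51 and -2.67 in T. Its difference of 1.47 ± 0.36 passed (limma adjusted p = 0.0138), and without M3 it was 1.24 (adjusted p = 0.0556). Nt5e, the ectoenzyme CD73, and the don't-eat-me receptor Sirpa rose by 1.20 and 1.09. The poliovirus receptor Pvr (-1.51), Cd40, Havcr2, which encodes TIM-3 (-1.05), Icosl (-0.79) and both arginases (Arg1 at -1.72 and Arg2 at -0.69) fell. The T2 column was nearer M for all 8 that were higher and nearer T for all 6 that were lower.

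Lipid genes were mostly higher among those that passed. Of 37 LXR, PPAR and lipid handling genes, 12 were higher and 5 lower (median 0.36). Scd1, the stearoyl-CoA desaturase, was at -2.11, -2.53 and -1.91 in M and -6.02, -5.93 and -5.95 in T, 13.8-fold higher, and the nuclear receptor Rxra rose by 2.53 and Apoc2 by 1.85. Abcg1, a cholesterol exporter, was lower by 0.72, and so was Abca1, which was above background on all 3 T arrays and on no M array, so that its signal allows no fold. Sterol and fatty acid synthesis had 12 of 34 members higher and 1 lower (median 0.45). Idi1, Pmvk, Mvk, Fdps, Fdft1 and Hsd17b7 of the cholesterol pathway rose by 0.71 to 1.14 and the desaturases Fads1 and Fads2 by 0.94 and 0.84, and the 2 probes of Fdft1 were split, while fatty acid synthase (Fasn) fell by 0.73. Mean Ctrl levels of Fdps, Fdft1 and Fads1 (5.12, 3.47 and 2.47) were at or above the M means (5.05, 3.47 and 2.35). Those of Idi1, Pmvk, Mvk, Hsd17b7 and Fads2 lay below the M means. The synthesis count was 6 under median scaling and 7 without both M1 and M3, and the LXR, PPAR and lipid counts were 6 higher and 2 lower without both M1 and M3.

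Targets of NRF2, the regulator of antioxidant genes, had 9 of 29 members higher (median 0.40), and none was lower in limma's test (1 at an unadjusted p under 0.05). Nqo1, a quinone reductase, was at -0.01, -0.06 and -0.08 in M and -3.60, -3.79 and -3.45 in T, 11.8-fold higher (limma adjusted p = 4.63e-06). The glutathione transferases Gstp1 (1.81) and Gsta4 (1.12), the carbonyl reductase Cbr3 (1.78) and malic enzyme Me1 (1.11) rose too. Iron handling genes had 5 of 22 higher, with the zinc and iron carrier Slc39a8 at least 3.02-fold higher from below background in T, ceruloplasmin (Cp) higher by 1.56 and the phagosomal metal transporter Slc11a1 by 1.26, and 1 lower.

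Cell cycle genes had 20 of 56 members higher and 4 lower (median 0.38). Prc1, which bundles spindle microtubules, was at 2.69, 2.15 and 2.85 in M and 0.70, 1.07 and 1.03 in T, 3.09-fold higher. Plk1, the mitotic kinase, was at 2.67, 2.91 and 2.87 in M and 1.36, 1.62 and 1.81 in T, 2.32-fold higher, and Foxm1 (1.32), Kif20a (1.10), Bub1b (0.91), Mki67 (0.81) and Ccnb1 (0.75) also rose. Cdc6 (-1.61), Ccnd2 (-1.32) and the inhibitor Cdkn1a (-0.74) fell, and Cdk1 fell by 1.56 with its 3 probes split 1 against 2, a call lost without M1, M3, T1, T2 or T3 (limma adjusted p between 0.0912 and 0.110). The count of higher members was 9 under median scaling and 6 without both M1 and M3, with 2 lower in that setting. Unfolded protein and integrated stress response genes had 1 of 40 higher and 7 lower, among them Atf6 (-1.15), Sel1l (-1.11), Herpud1 (-1.11), Hyou1 (-1.02) and the chaperone Hsp90b1 (-1.01). Heat shock genes had 2 of 24 higher and 4 lower. BCL2 family and death genes had 5 of 30 higher (16.7%) and 3 lower (10%), near the shares of all genes. Among them, Bcl2l1, which encodes BCL-XL, was down 1.09 log2 units. Of 20 prostaglandin and leukotriene genes, 4 were higher and 3 lower. Under median scaling, higher counts fell to 0 of the heat shock, 1 of the BCL2 and 1 of the prostaglandin genes. Without both M1 and M3, which left 1 M array, the medians of these lists were 0.10, 0.26 and 0.26. In the main fit they were 0.07, 0.16 and 0.12. The stress response median was 0.16 with that 1 M array and 0.02 in the main fit. None of 76 ribosomal protein genes passed in limma's test (1 at an unadjusted p under 0.05), and array weights called 2 higher and 1 lower. Of 75 respiratory chain genes, 2 passed (Ndufs5 and Atp5g3, both lower, and neither called without both M1 and M3), and array weights called 5 higher and 3 lower.

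Macrophage markers were measured in both groups. Csf1r, the receptor of CSF-1, lay between 4.35 and 4.76 in M and between 4.47 and 4.87 in T, and did not pass (-0.09 ± 0.19, adjusted p = 0.778). Of 8 defining macrophage markers, all were well above background on all M and T arrays. Of the 2 sort markers, Adgre1, which encodes F4/80, was at 3.28, 3.32 and 3.52 in M and 0.46, 0.72 and 0.66 in T, 6.78-fold higher in M (limma adjusted p = 1.90e-05). Ptprc, which encodes CD45, was 1.71-fold higher (adjusted p = 0.0185), a call lost under median scaling and without M1, M3, T2 or T3 (adjusted p between 0.0503 and 0.0794). In all, 7 of 23 pan-macrophage genes were higher and 3 lower, or 4 and 1 under median scaling, and 5 and 1 without both M1 and M3. In that last setting 2 large peritoneal macrophage genes were higher and 1 lower. Of 18 genes of large peritoneal macrophages, 4 were higher, led by Selp (2.76), and 3 lower, led by Car6.

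Markers of other cells were examined in the same fit. Their summed linear levels are given for comparison of arrays within a list, and bright probes carry them, mostly Csf3r and Lcn2 for granulocytes, Siglech and Bst2 for dendritic cells and Cd22 for B cells. Of 15 carcinoma markers, 3 were higher and 2 lower, and their summed linear level ranged from 5.12 to 6.35 in M and 4.92 to 5.23 in T. Krt19, a simple epithelial keratin, was at -5.48, -5.11 and -5.45 in M and -1.17, -1.03 and -0.87 in T, lower by 4.32 log2 units. Elf3, the other marker that was lower, fell by 1.55 without overlap. Epcam was higher by 1.26 and was well above background on 2 M and 2 T arrays. Mean Ctrl levels were -4.65 for Krt19, -3.38 for Elf3 and -4.27 for Epcam. Krt18 and Cldn7 did not pass, and Krt8 was not tested. Granulocyte markers had 5 of 18 higher and none lower (limma, 0 at an unadjusted p under 0.05 and 1 with array weights), with a summed level of 33.7 to 42.2 in M and 28.8 to 34.1 in T, S100a8 higher by 1.91 and Ly6g and Ltf well above background on no M array. T and NK markers had 3 of 15 higher (sums 6.95 to 8.06 and 6.39 to 6.94), dendritic markers 2 of 9 (46.8 to 72.1 and 53.1 to 74.5), and B cell markers 2 of 10 higher and 3 lower (10.4 to 15.2 and 13.1 to 21.3). Mast cell markers had 1 of 4 higher and 2 lower (0.17 to 0.25 in M, 0.51 to 0.57 in T), and mesothelial and fibroblast markers 2 of 10 in each direction (2.18 to 2.64 and 1.26 to 1.31), with Pdpn higher by 2.29. Under median scaling 3 granulocyte markers and 1 dendritic marker were higher, and without both M1 and M3, 1 dendritic and 1 mesothelial marker were higher and 1 B cell and 1 mast cell marker lower. Cd8a, Ms4a1, Cpa3, Clec9a, Upk3b, Wt1, Pdgfra and Dcn were above background on no M or T array. The same held for Kit, the mast cell marker called higher, which was tested through the Ctrl arrays. Gzma, of the higher T and NK markers, was above background on 1 M array and no T array. The part of other cells in the differences was not tested.

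**Figure D5:**
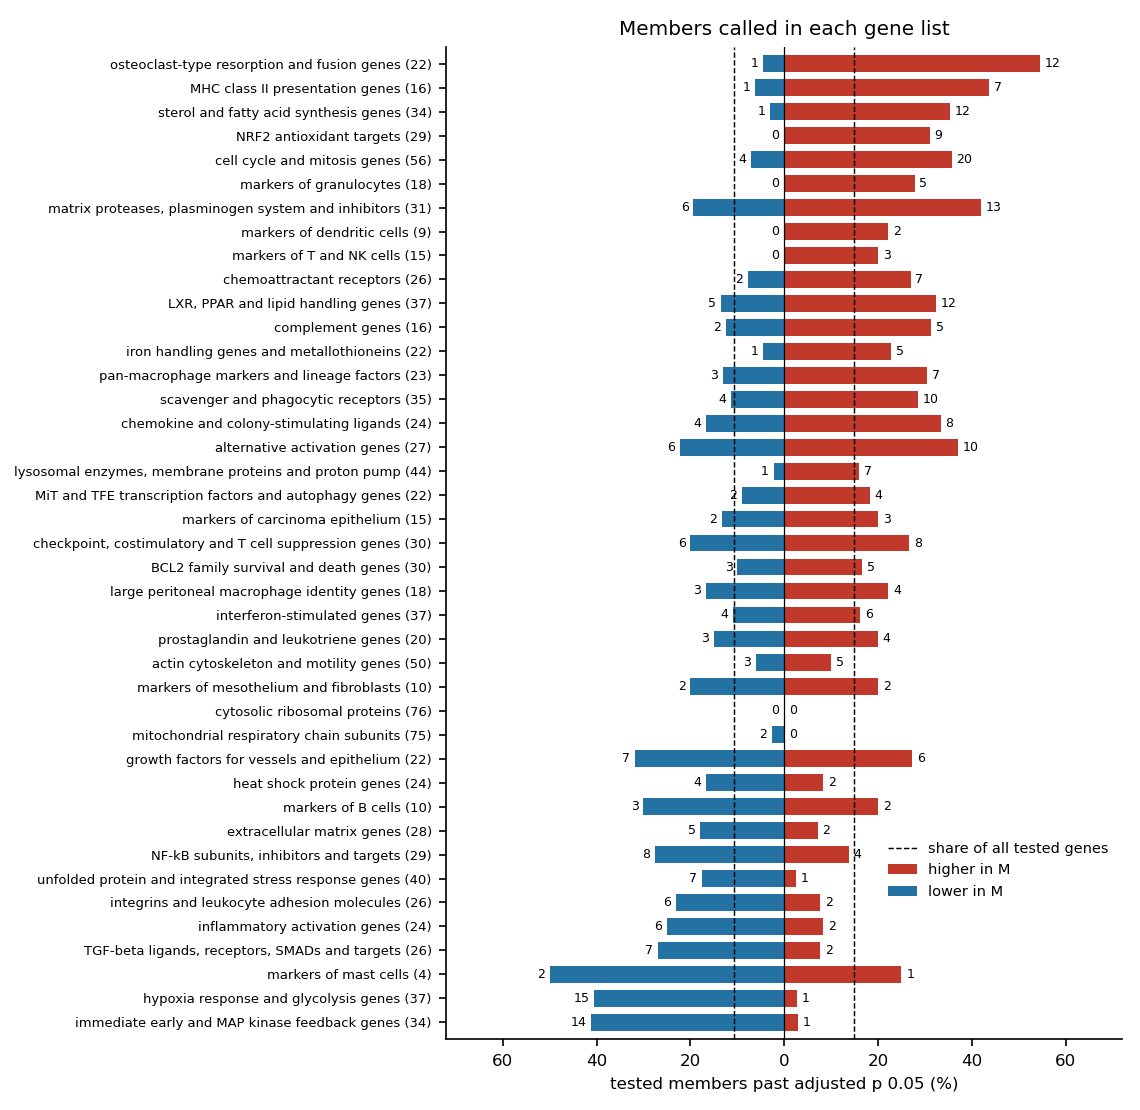
Share of the tested members of each of the 41 gene lists (number tested in brackets) called higher in M (red, right) and lower in M (blue, left), with the count at the end of each bar and the shares of all tested genes, 14.8% higher and 10.8% lower, as dashed lines. Osteoclast-type genes lie at the top with 12 of 22 higher, and immediate early genes at the bottom with 14 of 34 lower.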

How the data were processed

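RNA of 9 samples was measured on Agilent 1-colour arrays. The submitters' processing notes name Feature Extraction 10.7.3.1, Agilent's software, as the authors' tool. Its deposited scanner files hold spot intensity after background subtraction, without scaling across arrays (per the file headers), and probe positions on build mm9. A deposited value table, used as an alternative, holds 4 columns as linear intensity (medians 195.2 to 246.4) and 5 as log2 values (medians -4.03 to -3.39). How its T2 column was scaled and centred stays unknown.

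Control spots and outlier spots (147 to 299 per array) were left out, none was saturated, and repeat spots were averaged by probe. Each value is log2 of the signal minus its array's 75th percentile. Of 55681 probes, 26855 were named by accession through RefSeq's gene table (GRCm38.p6, names only) and 5241 by the array's own name. A probe was tested where well above background on all 3 arrays of a group, and the brightest probe stood for its gene. Group means of all 9 arrays were fitted with limma 3.58.1 in R 4.3.3 (lmFit, eBayes), with Benjamini-Hochberg adjustment. SEs pool the spread of 9 arrays. The procedure was tested on simulated data. The text names the 12 largest rises and 12 largest falls among called genes without overlap, up to 4 called members per list and 2 that went against their list, both sort markers and 12 macrophage genes (Csf1r, Arg1, Nos2, Mrc1, Cd274, Vegfa, Mmp9, Ctsk, Ccl2, Csf1, Csf3 and Il1b). The 12 exclude clone and model names and odorant receptors. Others (the further list members given with their values, Dcstamp and the comparisons with the T2 column) were chosen after their values were seen. Members and lists were chosen with earlier results of these data known. The precision is limited by the number of arrays. Some members of the lists are not reported here by name.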

Additional observations from a re-analysis of the deposited data

Results flagged for a closer look

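The T2 column of the deposited value table, which lies outside the main measurement and serves only as an alternative and for side-by-side values, held a signal for Slc9b2 and Atp6v0d2, above background on no T scanner array, and for Ctsk, above background on 2 of them. Its levels were 0.48 for Slc9b2, 2.92 for Ctsk and 0.61 for Atp6v0d2 (log2 relative to the 75th percentile), while no Ctrl array exceeded -6.27, -7.98 and -7.08 for these genes. Over all probes the column correlated with M1 to M3 at r = 0.981, 0.982 and 0.980 and with T1 to T3 at r = 0.980, 0.981 and 0.980, on log2 values of 1 column against each array, with no test.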

How the results depend on the processing

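The comparison has 3 arrays per group, and slide and group coincide, so a fit with slide as a block could not be made and was not run. Deviations from the group means correlated at -0.28, -0.15 and 0.03 between same-numbered M and T arrays. Between the other M and T arrays they correlated at -0.26 to 0.325. With 3 arrays per group, these values cannot show whether the numbers pair the samples. With a replicate block, 2278 genes were higher and 1747 lower. Of 187 named and called genes, 62 kept their call under all 19 alternatives, none changed sign under any of them, and the value table ended 112 calls.

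Higher counts moved to 1559 with median scaling, 5025 with no filter on dim probes, 4992 with array weights and 733 with the deposited value table. Lower counts moved to 3201 with array weights and 640 with the value table. Genes at least 2-fold higher moved to 675 with normexp, 2622 without the filter, 824 where all 6 arrays had to be well above background and 528 with the value table, and those at least 2-fold lower to 517 with the value table. Without M1 and M3, chosen after seeing the data, 1328 were higher and 1017 lower. Leaving out 1 array gave between 1537 and 2328 higher and between 1300 and 1701 lower. The lowest came without T3 (1537) and T2 (1583), and 1748 without M3. The causes were not tested.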

Other observations

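Olfactory receptor genes, which serve the nose, had 139 of 442 tested members higher in M and 8 lower (median 0.69), and vomeronasal receptors 17 of 71 higher and 1 lower (median 0.61). Of all tested genes, 14.8% were higher and 10.8% lower. Only 43.9% of the tested olfactory receptors were well above background on all 6 arrays. The M1 and M3 arrays had the highest signal of negative controls, 59.2 and 45.8, and the part of that signal in these counts was not tested.

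Some further gene groups were chosen after their values were seen, so their counts describe picked groups only. For comparison, 14.8% of all tested genes were higher in M. C-type lectin genes had 9 of 20 members called higher in M by limma, among them Clec4b2 (3.88), Clec4a1 (3.53) and Clec4a3 (2.94) of the Dectin-2 cluster. Phospholipase D genes had 5 of 6 members higher, from Pld4 (0.77) to Pld6 (1.82). Ahr, the receptor of dioxin and tryptophan metabolites, was at -2.04, -3.44 and -3.62 in M and below background on all T arrays, at least 11.1-fold higher, and its repressor Ahrr was 28.1-fold higher, with no M array below -1.75 and no T array above -5.88. Its known targets moved in both directions. Nqo1 rose by 3.56 and Tiparp fell by 0.71. Cyp1a1 was above background on all 3 T arrays and on no M array, which alone gives no direction.

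Of 15820 tested probes without a gene name, 1479 were higher in M and 1274 were lower.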
